A study of Homo sapiens with 15 samples.

Results

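The genes described here are 9 members of the insulin-like growth factor (IGF) system: the binding proteins IGFBP2, IGFBP3, IGFBP4, IGFBP5, IGFBP6 and IGFBP7, the receptor IGF1R, the adaptor IRS1 and the protease PAPPA. They were taken by symbol from the 28395 genes of a table of raw RNA-seq counts, and all 9 had enough counts to be tested. The 15 libraries came from BEAS-2B, an immortalised human bronchial epithelial line. Cells were kept in medium with 50 µg/mL of nanoplastics of polyethylene terephthalate (PET-NPLs) for 24 h (2 libraries), 15 weeks (2 libraries) or 30 weeks (4 libraries), and passage-matched cultures without particles served as controls (2, 2 and 3 libraries). All cultures shared the same serum-containing medium. The labels place the 24 h and 15-week libraries in batch 1 and the 30-week libraries in batch 2, so exposed and control cells of a time point always share a batch. The labels do not say whether the replicates of a group came from separate cultures, so p-values measure the spread between these libraries, which may be technical.

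IGF1 and IGF2 are secreted growth factors that bind the receptor tyrosine kinase IGF1R. The activated receptor phosphorylates IRS1, which passes the signal to PI3-kinase and AKT. Outside the cell, most IGF is held by the IGFBPs, which limit its access to the receptor and carry it in tissue fluids. PAPPA, a secreted metalloprotease, cuts IGFBP4 and IGFBP5 and so frees IGF. IGFBP7 differs from the rest in that it binds IGFs only weakly, and it is abundant in matrix and vessel walls. In airway epithelium and in lung tumours the IGFBPs are studied as secreted regulators of growth and senescence.

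The genes lie on 7 chromosomes (GRCh38). IGFBP2 (chr2:216632828-216664436, plus strand) and IGFBP5 (chr2:216672105-216695549, minus strand) are neighbours whose 3′ ends face each other 7668 bases apart. IGFBP3 (chr7:45912245-45921272, minus strand) lies 18584 bases from IGFBP1. IGFBP4 (chr17:40443450-40457725), IGFBP6 (chr12:53097667-53102340), IGF1R (chr15:98648539-98964530) and PAPPA (chr9:116153791-116402321) are on the plus strand, and IGFBP7 (chr4:57030773-57110385) and IRS1 (chr2:226731312-226799820) on the minus strand. An antisense gene covers 2450 bases of PAPPA exons (PAPPA-AS1) and 487 of IGFBP5 exons (DIRC3-AS1), and IGFBP7 exons share 94 bases with IGFBP7-AS1 and 260 with POLR2B. The kit marked strand, but the sources used here do not say whether counting used it, so reads of these pairs may not be separated.

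The 250 bases upstream of each start were read from RefSeq (GRCh38.p14), where 8 of the 9 genes had an entry, and searched for 3 motifs on both strands. The IGFBP2 entry lies inside the gene as annotated here, away from its main start, and was left out. The core of the TATA box (TATAAA) was held by 10.7% of 35116 such windows, the GC box (GGGCGG) by 42.6% and the CAGCTG form of the E-box by 14%. CAGCTG was in 0 of the other 7 windows, and other forms of the E-box were not searched for. The upstream sequences of 3 binding proteins are shown, because these genes moved in different directions at 30 weeks. Capitals mark matches, read 5′ to 3′ on the gene's own strand.
IGFBP4, chr17:40443200-40443449, plus strand: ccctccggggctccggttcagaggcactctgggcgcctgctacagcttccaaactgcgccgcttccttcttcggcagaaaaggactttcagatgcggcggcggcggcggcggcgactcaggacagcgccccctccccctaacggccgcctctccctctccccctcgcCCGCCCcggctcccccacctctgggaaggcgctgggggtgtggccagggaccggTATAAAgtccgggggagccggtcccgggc
IGFBP3, chr7:45921273-45921522, minus strand: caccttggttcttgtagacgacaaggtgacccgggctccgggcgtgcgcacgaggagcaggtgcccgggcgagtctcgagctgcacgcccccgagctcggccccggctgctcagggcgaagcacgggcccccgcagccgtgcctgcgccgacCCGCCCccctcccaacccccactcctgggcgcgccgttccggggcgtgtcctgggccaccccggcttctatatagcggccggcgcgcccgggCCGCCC
IGFBP5, chr2:216695550-216695799, minus strand: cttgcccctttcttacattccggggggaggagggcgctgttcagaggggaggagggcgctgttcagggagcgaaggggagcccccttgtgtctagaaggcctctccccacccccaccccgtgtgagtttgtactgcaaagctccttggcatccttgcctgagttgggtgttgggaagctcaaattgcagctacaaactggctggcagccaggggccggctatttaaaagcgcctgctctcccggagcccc
The IGFBP4 window held 1 TATA box core and 1 GC box, the IGFBP3 window held 2 GC boxes, and the IGFBP5 window held no match. A match here is a match of letters, and no binding was measured.

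Total counts per library ranged from 23143202 to 31459990. Levels are given as CPM, a gene's counts scaled to the library's total over the genes tested after TMM normalization. A list of 6 abundant small noncoding RNAs took 9.75 to 12.9% of counts in batch 1, 22.3 to 31.0% in the 30-week controls and 17.0 to 21.5% in the 30-week exposed cells. EPCAM and CDH1, which define epithelia, stayed below 1 CPM on average in all 6 conditions, whereas KRT8 and KRT18, keratins of simple epithelium, were abundant. At 30 weeks KRT8 averaged 149.9 CPM in controls and 616 CPM in exposed cells (log2 2.04, adjusted p = 1.29e-07), and KRT18 (log2 0.80) and KRT19 (log2 1.93) also rose. The summed level of 8 epithelial markers was 314 to 411 CPM in those controls and 880 to 1097 CPM in the exposed cells, with KRT5 at 0 in both. KRT7 averaged 1.93 and 1.92 CPM there. The summed level of 7 mesenchymal markers was 2034 to 2553 CPM in the 30-week controls and 1773 to 2025 CPM in the exposed cells. Among them CDH2 (log2 1.16) and COL1A2 (3.28) rose and COL1A1 (-2.91) fell. VIM, PDGFRB and THY1 were not called, and COL3A1 was not tested. The summed level of 19 skeletal muscle markers was 409 to 490 CPM in the 30-week controls and 78.2 to 96.9 CPM in the 30-week exposed cells, against 112 to 181 CPM at the earlier times. In those controls 12 of the 19 averaged at least 1 CPM, with MYOD1 at 85.3 CPM, CHRNA1 at 47.7 CPM and MYOG at 2.67 CPM. Other markers of the list, MYF5, MYF6 and PAX7, had 0 counts in all 15 libraries. The summed level of 4 immune markers was 25.4 to 32.0 CPM in the 30-week controls and 16.9 to 21.1 CPM in the exposed cells, with CD3E at 0 throughout. Of these markers CD68 was lower in exposed cells (log2 -0.95) and CD14 higher (log2 1.72), and PTPRC was not tested. The 4 endothelial markers summed to at most 3.01 CPM in any library. These shifts coincide with every difference at 30 weeks given here. Their part in them was not tested. Among the exposed libraries at 30 weeks, replicate 2 stood apart, with correlations of log2 CPM with the other 3 of 0.976 to 0.981, where those 3 correlated at 0.991 with each other. In these bulk samples, fewer cells of a type and less RNA per cell cannot be told apart.

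The comparison of exposed with control cells at 30 weeks addresses the effect of the longest exposure. It called 7 of the 9 genes at an adjusted p under 0.05 (edgeR's quasi-likelihood test, Benjamini-Hochberg over 16740 genes), where 23.7% of all genes tested were called. IGFBP7, IGFBP4, IGFBP2 and PAPPA rose, and IGFBP5, IRS1 and IGFBP3 fell. IGFBP6 and IGF1R did not pass the test. In 7 of the 9 genes no exposed library overlapped a control library, as in 27.3% of all genes.

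IGFBP7 showed the largest rise. It stood at 19.2, 25.6 and 20.6 CPM in the 3 control libraries and at 166, 191, 193 and 190 CPM in the 4 exposed ones. The lowest exposed library, replicate 1, was still far above the highest control. The log2 fold change was 3.09 ± 0.137 (SE, adjusted p = 3.74e-10), or 8.49-fold. IGFBP4, the substrate of PAPPA that mostly restrains IGF action, was at 23.1, 20.7 and 25.9 CPM in controls and at 83.4, 52.6, 74.6 and 81.8 CPM in exposed cells. Exposed replicate 2 was the lowest of its group and still above all controls, and the rise was 1.65 ± 0.170 on the log2 scale (SE, adjusted p = 2.82e-06). IGFBP2, a binding protein that is often raised in tumours, was at 16.8, 17.7 and 18.8 CPM in controls and at 49.8, 40.3, 50.0 and 65.8 CPM after exposure. The groups were again apart, with a log2 fold change of 1.54 ± 0.157 (SE, adjusted p = 2.76e-06).

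**Figure D1:**
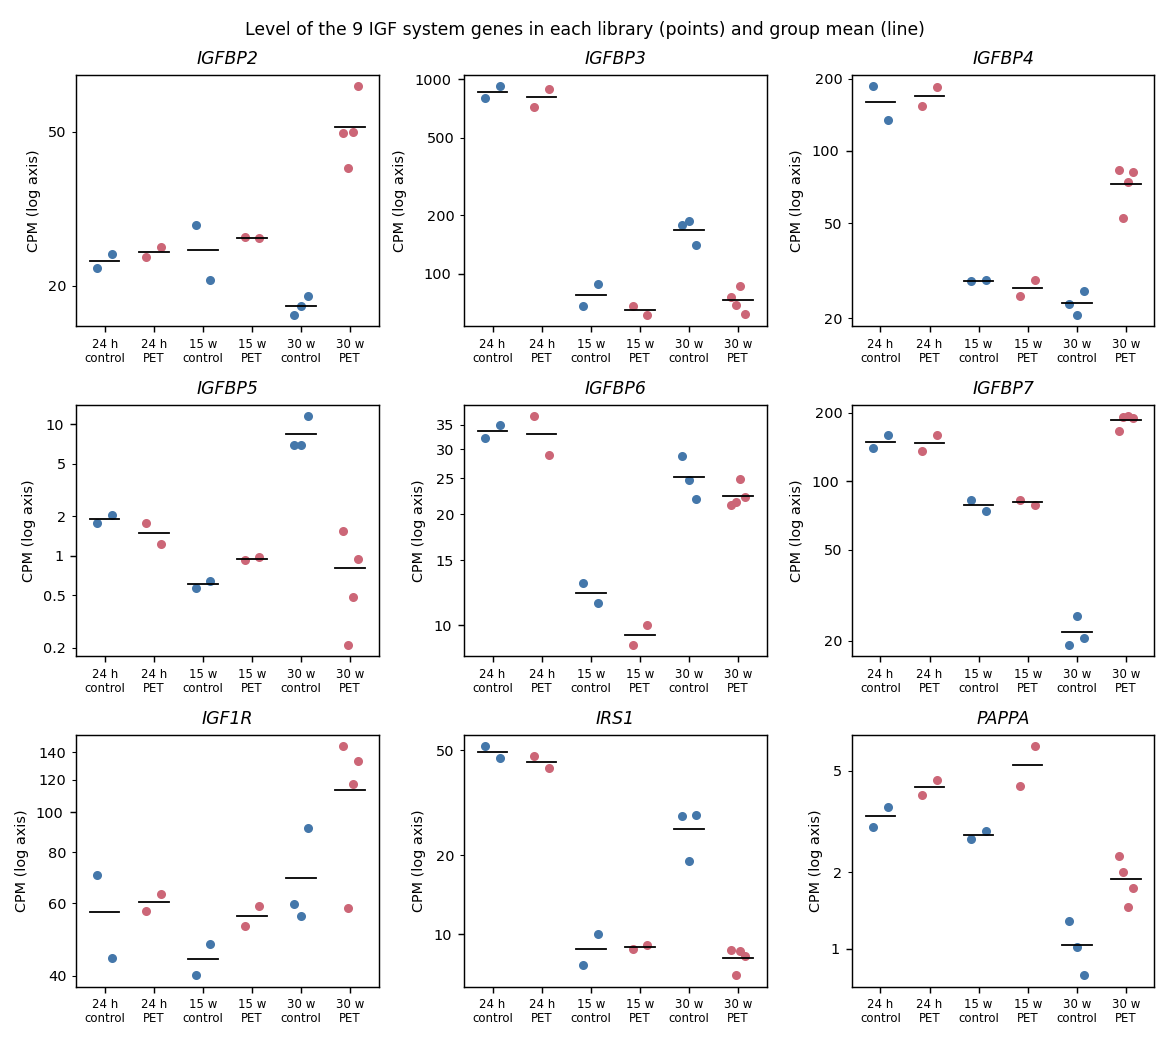
Level of each of the 9 genes in the 15 libraries, in CPM on a log axis, with each panel on its own range. Points are libraries (blue, control; red, exposed to PET-NPLs) and black lines are group means. At 30 weeks the exposed libraries of IGFBP2, IGFBP4, IGFBP7 and PAPPA all lie above the controls, those of IGFBP3, IGFBP5 and IRS1 all lie below, and those of IGFBP6 and IGF1R overlap them.

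IGFBP5, the other PAPPA substrate and the neighbour of IGFBP2, showed the largest fall. Its controls stood at 6.92, 6.93 and 11.5 CPM (161, 192 and 322 counts). The exposed libraries had 1.56, 0.210, 0.487 and 0.951 CPM, which is 43, 6, 14 and 27 counts. The exposed values spread more widely relative to their mean than those of any other member, with replicate 2 the lowest, and the fall was -3.40 ± 0.382 on the log2 scale (SE, adjusted p = 7.87e-06), or 10.6-fold. IRS1 was at 28.0, 19.1 and 28.3 CPM in controls and at 8.69, 7.01, 8.66 and 8.31 CPM in exposed cells. Its exposed libraries were close together and all below the controls (log2 fold change -1.62 ± 0.150, SE, adjusted p = 8.97e-07). IGFBP3, the main IGF carrier of blood, was at 177, 187 and 140 CPM in controls and at 75.5, 68.8, 85.9 and 61.8 CPM after exposure. The fall of -1.20 ± 0.148 (log2, SE, adjusted p = 2.16e-05) amounted to 2.30-fold. IGFBP2 and IGFBP5 thus moved in opposite directions although they are adjacent.

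PAPPA was low throughout and gave the weakest of the 7 calls. At 30 weeks it had 1.29, 1.01 and 0.787 CPM in controls (30, 28 and 22 counts) and 2.32, 2.00, 1.46 and 1.73 CPM in exposed cells (64, 57, 42 and 49 counts). The groups did not overlap, and the log2 fold change was 0.87 ± 0.242 (SE, adjusted p = 0.0159). The call was lost without control replicate 3 (adjusted p = 0.0691) or without exposed replicate 1 (adjusted p = 0.0509). IGF1R stood at 59.9, 55.8 and 91.6 CPM in controls and at 145, 58.3, 117 and 133 CPM in exposed cells. Exposed replicate 2 lay within the range of the controls, whose replicate 3 was well above the other 2, so the groups overlapped (log2 fold change 0.71 ± 0.257, SE, adjusted p = 0.0547). IGF1R passed the test without exposed replicate 2 (0.93, adjusted p = 0.000409) and without control replicate 3 (0.98, adjusted p = 0.0208). IGFBP6, which prefers IGF2 over IGF1, was at 28.8, 24.8 and 21.9 CPM in controls and 21.1, 21.6, 24.9 and 22.3 CPM in exposed cells. Those ranges overlapped, and the difference of -0.16 ± 0.127 (log2, SE) did not pass (adjusted p = 0.386). With exposed replicate 2 left out, the 7 calls stood, with log2 fold changes of 3.07 for IGFBP7, 1.78 for IGFBP4, 1.64 for IGFBP2, 0.84 for PAPPA, -3.09 for IGFBP5, -1.56 for IRS1 and -1.18 for IGFBP3, and IGF1R was the eighth. In that fit 34.2% of all genes were called.

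At 24 h, the acute time point, no member was called (edgeR's quasi-likelihood test), and 0% of all 16740 genes were. None of the 9 had an unadjusted p under 0.05, against 1.65% of all genes, and DESeq2 and limma-voom also called 0. The largest difference was that of PAPPA, 0.38 ± 0.269 (log2, SE), and its 3.01 and 3.60 CPM in controls against 4.00 and 4.61 CPM in exposed cells did not overlap. At that time the groups were apart in 1 of 9 members and in 26% of all genes. IGFBP7 had 140 and 159 CPM in controls and 136 and 160 CPM in exposed cells. IGFBP3 was at 802 and 924 CPM in controls and at 721 and 896 CPM in exposed cells. The control and exposed ranges of both genes overlapped.

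At 15 weeks the test of exposed against control cells also called 0 members with edgeR's quasi-likelihood test, DESeq2 or limma-voom. By the edgeR test, 0% of all genes were called. Unadjusted, 2 of the 9 were under 0.05, as were 4.92% of all genes. PAPPA had 2.68 and 2.89 CPM in controls (85 and 98 counts) and 4.34 and 6.23 CPM in exposed cells (140 and 192 counts). Both exposed libraries were above both controls, and such groups were apart in 4 of 9 members and in 45.3% of all genes. The PAPPA difference was 0.92 ± 0.266 (log2, SE, unadjusted p = 0.00323, adjusted p = 0.651). Among 25 alternative settings it passed only when the 15-week libraries were fitted alone (adjusted p = 0.0450). IGFBP6 had 13.0 and 11.5 CPM in controls and 8.84 and 10.0 CPM in exposed cells, a difference of -0.38 ± 0.172 (log2, SE, unadjusted p = 0.0443, adjusted p = 0.996). IGFBP7, IGFBP2, IGFBP4 and IRS1 each differed by at most 0.11 in absolute log2 value. With 2 libraries a group, IGFBP5 at 18 to 30 counts had a standard error of 0.582, so only a large change of it was detectable at this depth.

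The change at 30 weeks was compared with that at 15 weeks in the same fit. The difference passed the test in 6 of 9 members, where 4.74% of all genes passed. It was 3.04 for IGFBP7 (adjusted p = 6.05e-07), 1.75 for IGFBP4 (adjusted p = 0.000871) and 1.43 for IGFBP2 (adjusted p = 0.00252). In the other direction it was -4.04 for IGFBP5 (adjusted p = 0.00235), -1.64 for IRS1 (adjusted p = 0.000834) and -0.94 for IGFBP3 (adjusted p = 0.0387). For PAPPA, the member with nearly equal changes at both times, the difference was -0.05 ± 0.373 (log2, SE, adjusted p = 0.978), which leaves room for differences in either direction. The IGFBP3 call was lost in 9 of the 15 fits that left out 1 library, while the other 5 calls stood in all 15. With 1 library left out, the share of all genes that passed ranged from 2.27% without exposed replicate 2 at 15 weeks to 9.1% without exposed replicate 2 at 30 weeks, and it was also lower without any other 15-week library (427, 483 and 463 genes against 794).

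**Figure D2:**
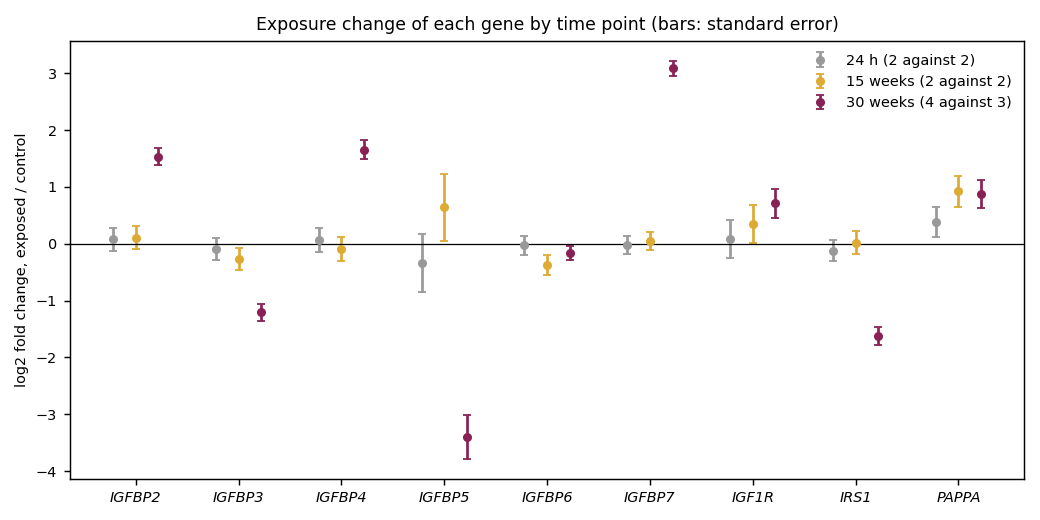
Log2 fold change of exposed against control cells for each gene at 24 h (grey), 15 weeks (yellow) and 30 weeks (purple), where points are the edgeR estimates and bars 1 standard error. The 24 h and 15-week points lie within 1 of 0 in all 9 genes, while at 30 weeks IGFBP7 reaches 3.09 and IGFBP5 reaches -3.40.

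The levels of several members also differed with time in culture. From 24 h to 15 weeks, within batch 1, 6 of 9 members were called in control cells, all lower (24.9% of all genes were called), and 5 of 9 in exposed cells, all lower (26% of all genes). IGFBP3 went from 802 and 924 CPM to 67.8 and 87.8 CPM in controls (log2 -3.47 ± 0.214, SE, adjusted p = 1.34e-08) and fell likewise in exposed cells (-3.64 ± 0.216, SE, adjusted p = 7.49e-09). IGFBP4 went from 187 and 135 CPM to 28.6 and 28.9 CPM in controls (log2 -2.48, adjusted p = 7.34e-07). IRS1 went from 51.7 and 46.6 CPM to 7.64 and 10.0 CPM in controls (log2 -2.47, adjusted p = 2.88e-07). IGFBP6 (-1.45), IGFBP5 (-1.63) and IGFBP7 (-0.93) also fell in controls. IGFBP5 was the member called in controls and not in exposed cells, where its log2 difference was -0.65 ± 0.542 (SE, adjusted p = 0.422), and the difference between those changes was not tested. IGFBP2, IGF1R and PAPPA passed in neither. KRT7, an epithelial keratin, moved alongside, from a mean of 1315 to 18.0 CPM in controls, and its part in these values was not tested.

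Between 15 and 30 weeks, time and batch cannot be told apart. In controls 7 of 9 members differed, where 50.3% of all genes did, and in exposed cells 6 of 9, where 46% of all genes did. Control cells at 30 weeks had more IGFBP5 (log2 3.79 ± 0.511, SE), IRS1 (1.51), IGFBP3 (1.11) and IGFBP6 (1.04) than at 15 weeks, and less IGFBP7 (-1.85 ± 0.145, SE), PAPPA (-1.44) and IGFBP2 (-0.47). Exposed cells at 30 weeks had more IGFBP4 (1.44), IGFBP6 (1.25), IGFBP7 (1.19), IGF1R (1.02) and IGFBP2 (0.95) than at 15 weeks, and less PAPPA (-1.49). IGFBP5, IRS1 and IGFBP3 in exposed cells were not called between these times, with log2 differences of -0.25 ± 0.490, -0.13 ± 0.174 and 0.17 ± 0.171 (SE). Side by side, the 30-week gap in IGFBP5, IRS1 and IGFBP3 therefore went with values that were higher in 30-week than in 15-week controls, and that in IGFBP4 and IGFBP2 mainly with values that were higher in 30-week than in 15-week exposed cells. For IGFBP7 both sides moved, the controls down from 73.7 and 83.1 CPM and the exposed cells up from 78.8 and 83.2 CPM. PAPPA and IGFBP6 moved in the same direction in exposed and control cells.

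Levels of different genes were compared per kilobase of the main annotated transcript. At 24 h the controls had IGFBP3 highest, at 330 ± 32.9 CPM per kb (SD, n = 2), followed by IGFBP7 (105), IGFBP4 (72.9), IGFBP6 (35.4) and IGFBP2 (16.4). IRS1 (5.03) and IGF1R (4.67) overlapped each other, as did IGFBP5 (0.304) and PAPPA (0.302). At 15 weeks IGFBP7 led in control cells (55.0 ± 4.64 CPM per kb, SD, n = 2) and in exposed cells (56.8 ± 2.15, SD, n = 2), ahead of IGFBP3 (29.8 and 24.8). IGFBP4 (13.0) and IGFBP6 (12.9) were not distinct in those controls. At 30 weeks the controls had IGFBP3 first again (64.3 ± 9.39 CPM per kb, SD, n = 3), then IGFBP6 (26.6), IGFBP7 (15.3), IGFBP2 (12.6) and IGFBP4 (10.5), the last 3 with ranges that only just missed each other. The exposed cells had IGFBP7 first (130 ± 8.89 CPM per kb, SD, n = 4), and IGFBP2 (36.4), IGFBP4 (33.2), IGFBP3 (27.9) and IGFBP6 (23.7) followed with ranges that overlapped from each to the next. IGF1R (9.27) and IRS1 (0.836) came lower, and PAPPA (0.171) and IGFBP5 (0.128) overlapped at the bottom.

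The 6 IGFBP messages together, as the sum of their CPM per kb, came to 560 ± 28.7 in controls and 542 ± 63.9 in exposed cells at 24 h (SD, n = 2 each). At 15 weeks the sums were 128 ± 4.18 and 123 ± 1.94 (SD, n = 2 each). At 30 weeks the controls summed to 131 ± 11.0 (SD, n = 3) and the exposed cells to 251 ± 15.1 (SD, n = 4), with ranges of 118 to 139 and 235 to 264. The exposed sum at 30 weeks was thus higher than its controls but below both 24 h groups. The makeup differed too. IGFBP3 held 49.0% ± 3.20 of the sum in the 30-week controls and 11.1% ± 1.56 in the exposed cells (SD, n = 3 and 4), while IGFBP7 held 11.7% ± 1.56 and 51.7% ± 3.63. IGFBP6 went from 20.3% to 9.45% although its own level did not pass the test, since the sum around it was larger. IGFBP2 held 9.69% and 14.4%, IGFBP4 8.16% and 13.2%, and IGFBP5 1.06% and 0.0513%. The 15-week cells, with IGFBP7 at 42.8% in controls and 46.3% in exposed cells, were nearer to the 30-week exposed cells in this share than to the 30-week controls. At 24 h IGFBP7 held 18.7% and 19.1%. These shares are values of messages, not of secreted protein, and were not tested. Between 30 weeks and the earlier times, time and batch cannot be told apart in the sums or the shares.

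**Figure D3:**
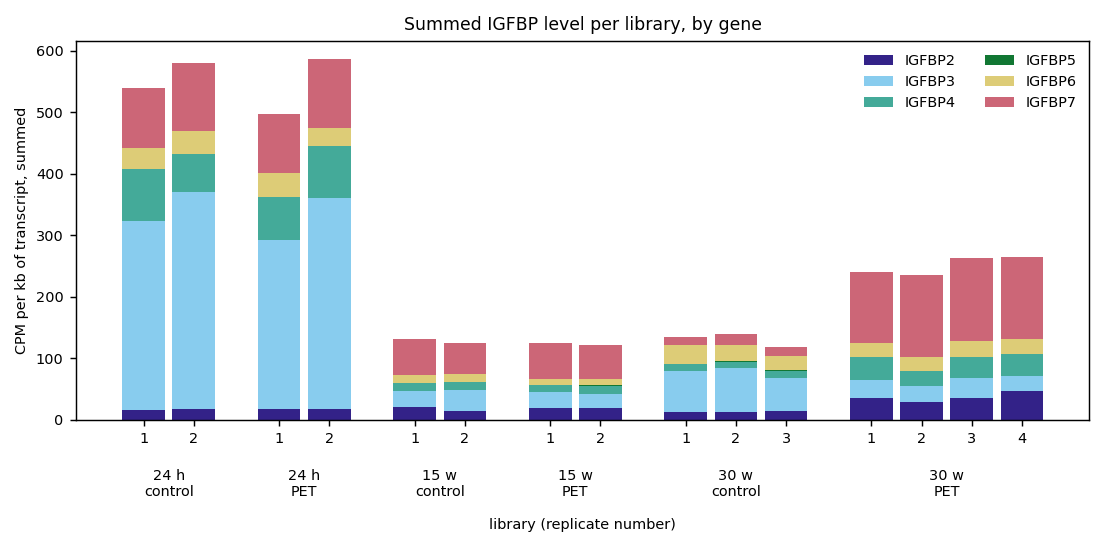
Summed level of the 6 IGFBP messages in each of the 15 libraries, in CPM per kb of transcript, with bars split by gene and grouped by condition. IGFBP3 (light blue) fills most of each bar at 24 h, and at 30 weeks IGFBP7 (red) makes up 11.7% of the bar on average in controls and 51.7% in exposed cells.

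The other genes of the pathway were followed with a list of 49, of which 40 had enough counts to be tested. At 30 weeks 13 of the 40 were called, 10 higher and 3 lower (23.7% of all genes were called), with a median log2 fold change of 0.10 beside 0.01 over all genes. At 24 h and at 15 weeks 0 of the 40 were called with edgeR's quasi-likelihood test, as were 0% of all genes. An unadjusted p under 0.05 was found in 0 and 2 of the 40, and in 1.65% and 4.92% of all genes. Neither ligand was present at a testable level. IGF1 had 5 to 16 counts at 24 h, 0 to 3 at 15 weeks and 0 counts in all 7 libraries at 30 weeks, which allows up to 3 counts a library. IGF2 had 0 to 2 counts in all 15 libraries. Serum in the medium can supply IGFs, which RNA counts do not measure.

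Among the remaining binding proteins and proteases, 2 of the called genes were much lower in exposed than in control cells at 30 weeks. IGFBPL1, a secreted protein that resembles the IGFBPs, averaged 11.9 ± 0.255 CPM in controls and 1.07 ± 0.114 CPM in exposed cells at 30 weeks (SD, n = 3 and 4, with log2 -3.47 ± 0.236, SE, adjusted p = 2.96e-08). HTRA1, a secreted serine protease that cuts IGFBPs, averaged 883 ± 69.3 CPM in controls and 224 ± 7.95 CPM in exposed cells (SD, log2 -1.98 ± 0.118, SE, adjusted p = 7.97e-09). At 15 weeks the control and exposed means were 261 and 244 CPM for HTRA1 and 1.66 and 1.51 CPM for IGFBPL1. The 30-week gap in both genes therefore went mainly with values that were higher in 30-week than in 15-week controls. Between these times, time and batch cannot be told apart. ADAM12, a metalloprotease that cuts IGFBP3 and IGFBP5, was also lower in exposed cells at 30 weeks, by a smaller amount (log2 -0.49 ± 0.159, SE, adjusted p = 0.0343). STC1, a stanniocalcin that inhibits PAPPA, averaged 7.63 ± 1.58 CPM in controls and 13.8 ± 1.97 CPM in exposed cells at 30 weeks (SD, log2 0.85 ± 0.154, SE, adjusted p = 0.000780). Its means at 15 weeks were 19.5 CPM in controls and 26.7 CPM in exposed cells. STC2, the other stanniocalcin of the list, was more abundant and was not called at 30 weeks, with means of 202 CPM in controls and 182 CPM in exposed cells. PAPPA, IGFBP4 and STC1 were thus all higher in exposed than in control cells at 30 weeks, and IGFBP5, HTRA1 and ADAM12 all lower. No protease activity was measured.

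Of the other receptors, INSR, the insulin receptor, which also pairs with IGF1R, rose from 12.8 ± 2.08 to 23.0 ± 4.28 CPM (SD, log2 0.84 ± 0.165, SE, adjusted p = 0.00157). IGF2R, which clears IGF2, had 315 ± 76.9 and 357 ± 109 CPM (SD, log2 0.18 ± 0.218, SE, adjusted p = 0.597). Of 5 adaptors tested, 1 was called, a share below that over all genes (23.7%). This was GRB10, which binds IGF1R and restrains its signal (log2 0.43 ± 0.126, SE, adjusted p = 0.0208), although its control and exposed libraries overlapped. In the PI3-kinase and AKT arm 5 of 19 genes rose, 1 of them with overlapping groups, and none fell, a share close to the 23.7% of all genes called. FOXO1, a transcription factor that AKT keeps out of the nucleus, went from 2.50 ± 0.603 to 8.63 ± 1.80 CPM (SD, log2 1.78 ± 0.212, SE, adjusted p = 1.45e-05). PIK3CB, a catalytic subunit of PI3-kinase, rose by 0.48 on the log2 scale, and PIK3R1, a regulatory subunit, by 0.42. The subunits PIK3CA and PIK3R2 were not called. Their means were 54.6 and 31.8 CPM in controls and 45.7 and 24.2 CPM in exposed cells. In the MAPK arm 0 of 5 genes were called by edgeR, and the groups of all 5 overlapped. Of the IGF2 mRNA-binding proteins, IGF2BP1 was higher in exposed cells at 30 weeks by 1.45 ± 0.248 (log2, SE, adjusted p = 0.000494) and IGF2BP3 by 0.59 ± 0.126 (log2, SE, adjusted p = 0.00297), while IGF2BP2 did not pass (0.07 ± 0.136). The control and exposed means of IGF2BP1 were 4.25 and 5.07 CPM at 15 weeks and 9.04 and 24.6 CPM at 30 weeks. Those of IGF2BP3 were 55.1 and 64.6 CPM at 15 weeks and 28.2 and 42.4 CPM at 30 weeks.

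**Figure D4:**
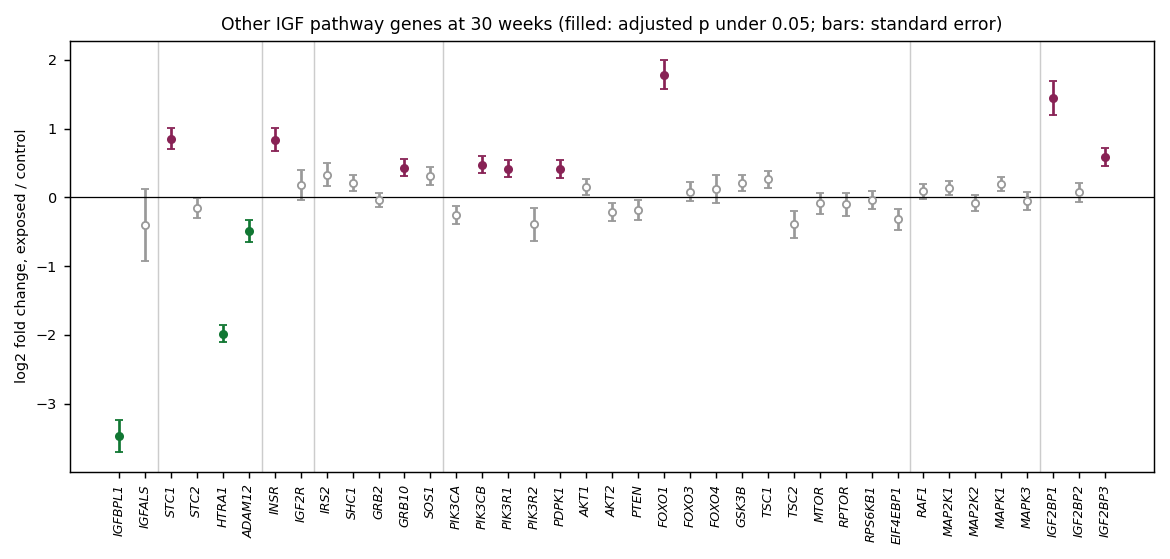
Log2 fold change of exposed against control cells at 30 weeks for all but 1 of the 40 tested genes of the pathway list, in order of role from binding proteins on the left to IGF2 mRNA-binding proteins on the right, with grey lines between roles, where bars are 1 standard error and filled points have an adjusted p under 0.05. IGFBPL1 (-3.47) and HTRA1 (-1.98) lie lowest and FOXO1 (1.78) highest.

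The genes whose levels followed those of the 2 members with the largest changes were listed over all 15 libraries, among 13449 genes averaging at least 1 CPM. For IGFBP7 they were IL6R, the receptor chain for interleukin 6 (Pearson r of log2 CPM 0.990), ZNF185 (0.973) and GABBR1, a subunit of a GABA receptor (0.968). For IGFBP5 they were DAPK1, a death-associated kinase (0.928), VWA5A (0.912) and SCARB2, a lysosomal membrane protein (0.912). The points are the 15 libraries of 6 conditions and 2 batches, which the points share.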

How the data were processed

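Total RNA was rRNA-depleted, made into stranded libraries and sequenced by Illumina. Per the study's methods, the authors trimmed adapters, discarded reads under 20 bases, mapped to GRCh38 (hg38 in the submitters' processing notes, which name bcl2fastq and featureCounts) and counted with Rsubread. The deposited values are raw counts per Entrez gene. Strand and multi-mapping settings are not given in the sources used here.

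Of 28395 genes, 27745 received a symbol, and filterByExpr kept 16740. These were fitted in edgeR 4.0.16 (R 4.3.3) with TMM scaling, 1 mean for each of the 6 conditions over all 15 libraries, and quasi-likelihood tests. The adjusted p threshold was 0.05 over all genes tested, and standard errors are |log2 fold change| divided by the root of F. This test was tried on simulated counts first. Groups came from the labels. CPM per kb used GENCODE v44 MANE Select exon lengths. Named genes were the 9 members, the called pathway genes with the 12 largest changes (1 of which is not reported here), IGF1, IGF2, INSR and IGF2R, and the 3 genes most like each of the members with the largest rise and fall. The members and lists were chosen with earlier results of these data known. Alternatives used DESeq2 1.42.0, limma 3.58.1 with and without sva 3.50.0, other filters and scalings, a replicate block, and leaving out each library. Counting error limits low genes such as PAPPA and IGFBP5.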

Additional observations from a re-analysis of the deposited data

Results flagged for a closer look

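In the 4 exposed libraries at 30 weeks, IGFBP7 had 1 library far from the other 3. Replicate 1 stood at 166 CPM and the others at 190 to 193 CPM, and the gap divided by the whole range was 0.900, above Dixon's critical value for 4 samples. Chance flags about 1 in 20 such groups, and 9 genes were examined. All 4 libraries were above the controls.

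The exposure change at 30 weeks differed from that at 15 weeks in 6 of 9 members by the test of the difference itself (edgeR, adjusted over all genes), where 4.74% of all genes passed. The IGFBP3 call stood in only 6 of the 15 fits that left out 1 library. The log2 differences, 30 weeks minus 15 weeks, were 3.04 for IGFBP7, 1.75 for IGFBP4, 1.43 for IGFBP2, -0.94 for IGFBP3, -1.64 for IRS1 and -4.04 for IGFBP5. The 30-week libraries are all of batch 2 and the 15-week ones of batch 1, so time and batch cannot be told apart in these differences.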

How the results depend on the processing

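Results were recomputed under 25 alternatives. At 30 weeks IGFBP2, IGFBP3, IGFBP4, IGFBP7 and IRS1 kept their call and direction in all 25, and IGFBP5 in the 24 that tested it, since it was not tested with at least 10 counts required in every library. IGFBP6 was called in 0 of 25 (adjusted p from 0.217 to 0.931). PAPPA was called in 21, with adjusted p from 0.00756 to 0.0756. It was lost with surrogate variables (0.0756), with each time point alone (0.0611) and without 2 libraries named above. IGF1R was called in 5, with adjusted p from 0.000184 to 0.204, among them DESeq2 (0.0284), surrogate variables (0.000184) and no filter (0.0133). The number of members called at 30 weeks ranged from 6 to 8, where the share of all genes called ranged from 14.9% to 34.2%. At 15 weeks the number of members was 1 (PAPPA) with each time point alone, where 1.96% of all genes were called. At 15 weeks the IGFBP7 difference turned to -0.0216 with surrogate variables and the IRS1 difference to -0.0037 with upper-quartile scaling. Leaving out 1 library gave log2 differences at 15 weeks of -0.11 to 0.37 for IGFBP2, -0.20 to 0.0074 for IGFBP4, -0.0371 to 0.14 for IGFBP7 and -0.16 to 0.23 for IRS1, none of them called. Over all genes, the count called at 30 weeks was 3961, against 2370 with each time point alone and 2491 without control replicate 1, and 4436 with DESeq2 and 5704 without exposed replicate 2, and at 15 weeks it was 0, against 17 with DESeq2, 19 with surrogate variables, 10 with no filter, 304 with each time point alone and 14 without exposed replicate 2 of 30 weeks. Genes whose changes differed between 30 and 15 weeks numbered 794, against 1991 with surrogate variables. Between 15 weeks and 24 h the counts of 4174 in controls and 4349 in exposed cells fell to as low as 2462 and 2526 with 1 library left out, and the latter was 7159 with surrogate variables. Between 30 and 15 weeks the 7697 genes of exposed cells fell to 5069 without exposed replicate 2 of 15 weeks. With the replicate number as a block, 7 members were called at 30 weeks, where 19.9% of all genes were. In that fit 0 members and 0% of all genes were called at 24 h and 15 weeks. Deviations of same-numbered libraries correlated at -0.118, 0.303 and 0.0981 at 30 weeks, -0.0601 at 24 h and 0.0290 at 15 weeks. At 30 weeks control 2 was highest with exposed 2, whereas control 3 was highest with exposed 1 (0.359). Groups this small cannot decide whether the numbers pair the libraries. The cause of these shifts was not tested. Counting depth limits IGFBP5 (6 to 43 counts in exposed cells at 30 weeks) and PAPPA.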
